A study of Mus musculus with 12 samples.

Results

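The genes described here encode the proteins of the cytosolic ribosome. They were chosen by name, as probe sets whose only gene symbol in the platform annotation starts with Rpl or Rps and a digit, or is Rplp0, Rplp1, Rplp2 or Rpsa, with the S6 kinase genes (Rps6k) left out. The rule took 139 probe sets of 75 genes, out of 28898 probe sets of 17097 genes with a single symbol. A probe set was kept when it exceeded its array's 40th percentile on at least 3 of 12 arrays, which 132 probe sets of 74 genes did. The gene left out was Rpl3l, a muscle paralog of Rpl3, whose probe set was dim. Of the 74 genes, 38 encode proteins of the large subunit, 24 proteins of the small subunit and 3 the P stalk, while 5 are paralogs, 3 carry pseudogene symbols and 1, Rps19bp1, encodes a protein that binds Rps19 and is no part of the ribosome.

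RNA from mouse blood-forming cells had been hybridised to 12 expression arrays, and each of the 4 groups had 3 arrays. Ts1Cje + Trib1 is an acute myeloid leukaemia (AML) cell line labelled as expressing Trib1 on the Ts1Cje background, and B6 + Trib1 is the like-labelled AML line on the B6 background; the sample titles call both "Trib1 WT". Ts1Cje and B6 are hematopoietic cells of Ts1Cje and wild type mice without added Trib1. The Ts1Cje mouse, a model of Down syndrome, carries an extra copy of part of chromosome 16, and Trib1 is a pseudokinase that marks the transcription factor C/EBP alpha for breakdown. All 4 groups were grown in the same medium with 10% serum and 5 ng/ml of IL-3, a growth factor of myeloid and mast cell precursors, and were otherwise untreated. The labels do not give the age or sex of the mice, how Trib1 was introduced, or whether the arrays of a group came from separate mice, lines or cultures, so the p-values reflect the spread among these arrays alone, which may be technical. Each comparison of a line with hematopoietic cells joins the Trib1 label, the leukaemic state and growth as a line, which cannot be told apart. Each group enters 2 of the 4 comparisons and the difference between genotype effects, so these share arrays.

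A ribosome has a small subunit, which reads the mRNA, and a large subunit, which joins amino acids. Each subunit holds ribosomal RNA and a fixed set of proteins, most of them in a single copy, and cells make these proteins in matched amounts. The mRNAs of ribosomal proteins start with a cytosine followed by a run of pyrimidines, the terminal oligopyrimidine (TOP) motif, through which the kinase mTORC1 and the RNA-binding protein Larp1 set their translation and stability. Blood formation is known to be sensitive to ribosomal protein dose: in humans, loss of a copy of a ribosomal protein gene such as RPS19 causes Diamond-Blackfan anaemia.

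Sequences around the annotated start site are shown for 6 of the genes on which the results turn, because the family is known for the pyrimidine run at that place. Each is 30 bases of the strand that reads like the mRNA, with 15 bases before the start and 15 from it, taken from RefSeq on GRCm38.p6. Capitals mark the letters CTTTC, the form of the motif that was searched. In Rpl15 these letters lie after the annotated start, whereas in Rpl39l they lie before it, outside the annotated transcript.
Rpl39l, chr16:10170213-10170242, plus strand: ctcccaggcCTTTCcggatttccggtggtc
Rpl39, chrX:37085208-37085237, minus strand: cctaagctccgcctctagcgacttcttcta
Rpl15, chr14:18270972-18271001, minus strand: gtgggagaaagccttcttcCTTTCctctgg
Rps6, chr4:86857353-86857382, minus strand: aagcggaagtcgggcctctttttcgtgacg
Rpl22l1, chr3:28805493-28805522, plus strand: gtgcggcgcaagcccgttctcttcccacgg
Rpl14, chr9:120571502-120571531, plus strand: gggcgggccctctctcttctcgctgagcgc
Of the 74 genes, 58 had a start site in the table, and 14 of these (24.1%) held CTTTC in such a window, before or after the start, against 1286 of all 27025 genes (4.76%). The reversed motif GAAAG was found in 3 of the 58 genes (5.17%) and in 4.21% of all genes. CTTTC is only 1 form of a pyrimidine run, and Rps6, Rpl22l1 and Rpl14 hold runs of C and T with other letters. Rpl41, whose window was also taken but is not shown, held neither CTTTC nor a long run of C and T. A match describes the annotated sequence and shows no binding or regulation.

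Array medians lay between 30.5 and 32.0 and maxima between 8041 and 8685. Among the 132 kept probe sets, 102 had a mean intensity of at least 2000, and on every array these lay at the 98.3rd percentile or above. Between 41 and 54 of the 100 brightest probe sets on an array, controls left out, were kept ribosomal sets, with 41 to 45 on the Ts1Cje arrays. Pairs of arrays within a group correlated at 0.997 to 0.999 across probe sets, and pairs between groups at 0.915 to 0.993. Of 56 tested genes in the stretch of chromosome 16 from after Sod1 to Zbtb21 that Ts1Cje is known to triplicate, 37 were higher and 2 lower in Ts1Cje than in B6, and 33 were higher and 2 lower in Ts1Cje + Trib1 than in B6 + Trib1. The only kept Trib1 probe set went against the label: it read 41.8 to 48.6 on Ts1Cje + Trib1 arrays and 43.1 to 48.7 on B6 + Trib1 arrays, against 69.5 to 76.0 on Ts1Cje arrays and 68.2 to 82.1 on B6 arrays. Whether its probes lie in the introduced sequence is not given in the sources used here, and the lines are called Trib1-labelled below. Summed intensities of 5 pan-hematopoietic markers (Ptprc, Cd53, Coro1a, Laptm5 and Lcp1) ranged from 13497 to 15722 over all arrays.

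Ribosomal protein transcripts were slightly lower in Ts1Cje than in B6 hematopoietic cells. In limma's test on log2(intensity + 15), adjusted over 12560 genes, 21 of the 74 genes fell and 1 rose, where 29.3% of all genes fell and 23.3% rose. The share that fell (21 of 74) was thus close to that of all genes, while the median log2 difference was -0.061 for the family and 0.0090 for all genes, and 67 of 74 differences were negative. In size the shifts were small, with 72 of the 74 genes within 0.2 log2 units of 0, against 8094 of all 12560. The largest falls of subunit genes were in Rpl14, Rpl35 and Rpl30 of the large subunit and Rps20 of the small subunit. Rpl14 and Rps15a were read by weak probe sets, with mean intensities of 279 and 32.3, while the other 63 subunit and stalk genes were read by sets with a mean of at least 2000. Weak sets mostly showed larger differences than strong sets of the same gene, as described further on, so the rank of Rpl14 compares a weak set with strong ones.

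Large subunit genes made up 13 of the calls, all of them falls, out of 38 tested. Rpl14, a protein on the outer face of the large subunit, read 201, 161 and 173 in Ts1Cje and 253, 263 and 258 in B6. All 3 Ts1Cje arrays lay below all 3 B6 arrays, a log2 difference of -0.50 (SE 0.066, adjusted p = 3.62e-05). Rpl35, which lies at the exit of the tunnel for new protein, read 5839.8, 5236 and 5207 in Ts1Cje and 6016, 6117 and 6116 in B6, with Ts1Cje replicate 1 nearest to the B6 arrays. Its log2 difference was -0.17 (SE 0.043, adjusted p = 0.00585). Rpl30, known in yeast for repressing splicing of its own transcript, read 4476, 4178 and 4191 in Ts1Cje and 4714, 4808 and 4734 in B6, a log2 difference of -0.15 (SE 0.036, adjusted p = 0.00388). Again the groups did not overlap, which the naming of genes by size required, and Ts1Cje replicate 1 was the highest of its group. Smaller falls passed in Rpl21, Rpl24, Rpl36a, Rpl26, Rpl11, Rpl13a, Rpl7, Rpl15, Rpl34 and Rpl35a.

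In the small subunit 4 of 24 genes fell and none rose. Rps20, at the head of the small subunit, read 5877, 5279 and 5347 in Ts1Cje and 6044, 6199.7 and 6124 in B6, a log2 difference of -0.16 (SE 0.044, adjusted p = 0.0104). Its groups did not overlap, and Ts1Cje replicate 1 stood above the other two. The other falls were Rps7, Rps28 and Rps15a. Rps15a read 30.7, 31.6 and 31 in Ts1Cje and 35.2, 32.2 and 35.9 in B6, close to the array medians of 30.5 to 32.0, so its call rests on a signal that is weak throughout. Rps6, the substrate of the S6 kinases, read 7798, 8011 and 8059 in Ts1Cje and 8061, 8041 and 8063 in B6 on its strong probe set, near the top of each array's range, and its log2 difference of -0.018 (adjusted p = 0.652) did not pass. None of the stalk genes passed: Rplp0, Rplp1 and Rplp2 form the stalk that recruits elongation factors, and their log2 differences were -0.022, -0.011 and -0.071.

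The count of falls changed when single arrays were left out: it was 7 without Ts1Cje replicate 2 or without replicate 3, 9 without B6 replicate 1 or replicate 2, and 8 without B6 replicate 3. It was also 7 when arrays were scaled to the same trimmed mean, 8 when only these 2 groups were fitted, 12 with the replicate number as a block and 42 with a variance trend and robust moderation. Of all genes 26.3%, 28.3%, 28.5% and 29.9% fell in these settings, in that order, and 25.3% to 26.7% without 1 of the arrays named. The family's share was not close to that of all genes in these settings. It was higher with the variance trend and lower in the others. Markers of other cell types and of proliferation also differed between the same groups, with summed intensities that did not overlap for 9 of 10 marker lists. The 5 neutrophil granule markers (Ltf, Camp, Ngp, Mpo and Elane) summed to 22889 to 23523 in Ts1Cje, against 14520.1 to 14809 in B6. The 5 monocyte and macrophage markers (Csf1r, Cd14, Mpeg1, C1qa and F13a1) summed to 5706 to 5791 in Ts1Cje, against 3539 to 3597 in B6. The 4 kept B lineage markers (Vpreb1, Dntt, Ebf1 and Cd79a) summed to 923 to 1037 in Ts1Cje, against 3002 to 3144 in B6. The 5 mast cell and basophil markers (Fcer1a, Mcpt8, Cpa3, Cma1 and Ms4a2) summed to 3845 to 4120.2 in Ts1Cje, against 2163 to 2211 in B6. The 4 kept T and NK markers summed to 255 to 288 in Ts1Cje, against 634 to 662 in B6. Singly, all 5 neutrophil granule markers rose, all 4 kept B lineage markers fell, and 3 of the 4 T and NK markers fell. In the monocyte and macrophage list 4 markers rose and 1 fell, and in the mast cell and basophil list also 4 rose and 1 fell. The 4 kept proliferation markers (Mki67, Top2a, Mcm5 and Pcna) went the same way as the ribosomal genes: they summed to 8247 to 8519 in Ts1Cje, against 9104 to 9140.1 in B6, and 3 of the 4 fell. Erythroid, megakaryocyte and stromal sums were also lower in Ts1Cje. Singly, 1 of 3 kept erythroid, 5 of 5 megakaryocyte and 2 of 3 kept stromal markers fell, and the others did not pass. No defining marker of these lists was at 0, and the part of cell mixture and proliferation in the ribosomal shifts was not tested. In RNA from mixed cells, fewer cells of a type and less RNA per cell cannot be told apart.

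**Figure D1:**
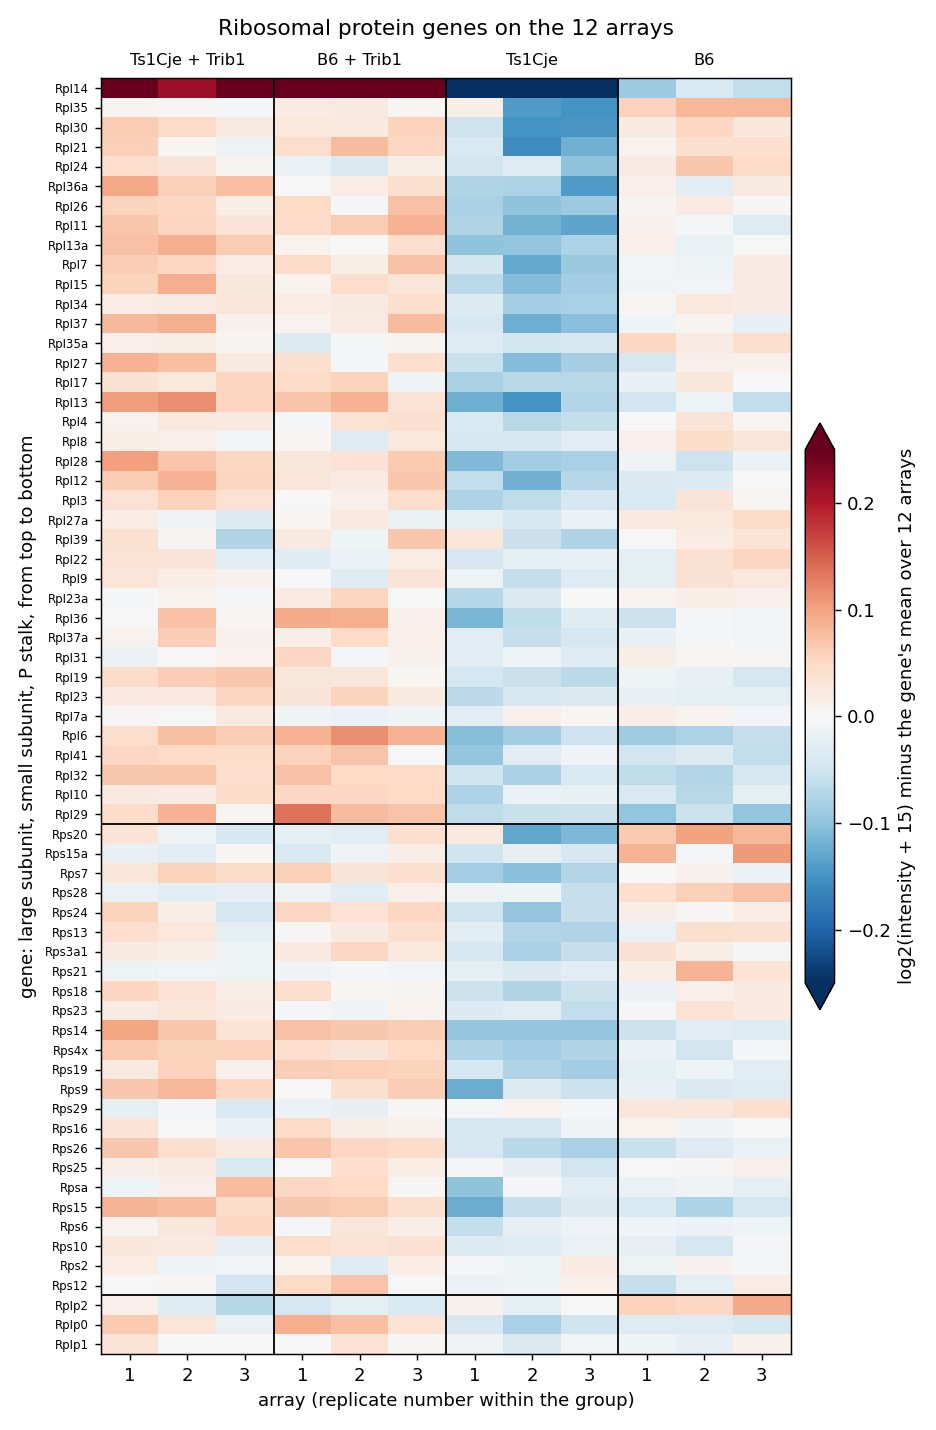
Each row is 1 of 65 subunit and stalk genes and each column 1 array, grouped as Ts1Cje + Trib1, B6 + Trib1, Ts1Cje and B6; colour gives log2(intensity + 15) minus the gene's mean over the 12 arrays, from blue (lower) to red (higher), with values beyond 0.25 shown at the end colour. The Ts1Cje columns are mostly blue, the median of the 74 genes on an array, centred per gene, being -0.064 to -0.044 on Ts1Cje arrays and -0.0074 to 0.035 on the other 9 arrays.

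Between the Trib1-labelled lines the family differed little by genotype. Of 74 genes 1 rose, the paralog Rpl39l, and none fell, where 11.9% of all genes rose and 9.63% fell. None of the 65 subunit and stalk genes passed, and none had an unadjusted p under 0.05. The 95% intervals of all 65 log2 differences lay within 0.2 of 0, the widest reaching down to -0.19 for Rpl14 and the highest bound being 0.13. By estimate 73 of the 74 genes lay within 0.2 of 0, against 10513 of all 12560. These values hold for the probe set that represents each gene. Of the 132 kept ribosomal probe sets 5 rose and 0 fell, where 10.4% of all kept probe sets rose and 7.71% fell. Among the 5 were 2 weak sets of Rpl41, with 0.37 and 0.45. The median over the 74 genes was 0.0023.

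Rpl14 gives an example. It read 334, 316 and 351 in Ts1Cje + Trib1 and 332, 341 and 365 in B6 + Trib1, a log2 difference of -0.052 (SE 0.066, adjusted p = 0.65). The groups overlapped. Rps19, the gene most often mutated in human Diamond-Blackfan anaemia, read 4985, 5114 and 4949 in Ts1Cje + Trib1 and 5123, 5115 and 5105 in B6 + Trib1, and its log2 difference of -0.028 did not pass. Rpsa, a small subunit protein also known as the laminin receptor, read 5530.2, 5620.0 and 5882 in Ts1Cje + Trib1 and 5774, 5767 and 5581 in B6 + Trib1, with overlapping groups. Here too marker sums differed, without overlap for 8 of 10 lists. The proliferation sum was 8961 to 9109 in Ts1Cje + Trib1, against 9607 to 9787 in B6 + Trib1. The neutrophil granule sum was 6073 to 6238 in Ts1Cje + Trib1, against 11563 to 11863 in B6 + Trib1, and the part of either in these values was not tested.

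The B6 + Trib1 line differed from B6 hematopoietic cells in 16 of the 74 genes, with 12 higher and 4 lower, where 34.1% of all genes rose and 31.1% fell. The family's median log2 difference was 0.019, against 0.030 for all genes, and 71 of the 74 genes lay within 0.2 of 0, against 6725 of all genes. The rises were 7 of 38 large subunit genes, 4 of 24 small subunit genes and Rplp0, and the only fall of a subunit or stalk gene was Rplp2.

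On its weak set Rpl14 had the largest rise. It read 332, 341 and 365 in B6 + Trib1 and 253, 263 and 258 in B6, with no overlap and a log2 difference of 0.40 (SE 0.066, adjusted p = 0.000137). Rpl29, a basic protein on the large subunit's surface, read 5500.0, 5286 and 5263 in B6 + Trib1 and 4672, 4825 and 4671 in B6, a log2 difference of 0.18 (SE 0.036, adjusted p = 0.000732). Rpl6 read 5809, 5933 and 5813 in B6 + Trib1 and 5143, 5178 and 5258 in B6, a log2 difference of 0.17 (SE 0.033, adjusted p = 0.000482). For both genes every line array lay above every B6 array, which the naming of genes by size required. Rpl32, Rps15 and Rps14 followed with log2 differences of 0.12, 0.11 and 0.10. Rps14, whose human counterpart is lost in a deletion syndrome of the bone marrow, read 6141, 6114 and 6085 in B6 + Trib1 and 5621, 5724 and 5705 in B6.

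Within the stalk the 3 genes did not move alike. Rplp0, the stalk's base, read 6975, 6911 and 6718 in B6 + Trib1 and 6408, 6411 and 6381 in B6, a rise of 0.10 (SE 0.035, adjusted p = 0.0214). Rplp2, which pairs with Rplp1 at the stalk's tip, read 5369, 5449 and 5387 in B6 + Trib1 and 5754, 5730.4 and 5911 in B6, a log2 difference of -0.10 (SE 0.035, adjusted p = 0.0204). Rplp1 read 6739, 6917 and 6754 in B6 + Trib1 and 6692, 6649 and 6797 in B6, with overlapping groups. Neither call held throughout. Rplp0 lost its call under median centring (adjusted p = 0.084) and Rplp2 under trimmed-mean scaling (adjusted p = 0.11).

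The number of rises in this comparison was 6 without B6 + Trib1 replicate 1 or replicate 2 and 7 without B6 replicate 2, and the number of falls was 2 without B6 replicate 3 or B6 + Trib1 replicate 1. Of all genes 29.5%, 28.7% and 29.8% rose without these arrays, and 28.4% and 28.6% fell, in the order given. With trimmed-mean scaling 24 genes rose and 2 fell, where 39.1% of all genes rose and 28.3% fell. With median centring 5 rose, where 29.8% of all genes did. All 10 marker lists had sums that did not overlap between these groups. Mast cell and basophil markers summed to 17066 to 17369 in B6 + Trib1, against 2163 to 2211 in B6, and megakaryocyte markers to 9162 to 9401 in B6 + Trib1, against 5741 to 5909.6 in B6. B lineage markers summed to 95.05 to 116 in B6 + Trib1, against 3002 to 3144 in B6, and monocyte and macrophage markers to 1692 to 1764 in B6 + Trib1, against 3539 to 3597 in B6. Proliferation markers summed to 9607 to 9787 in B6 + Trib1, against 9104 to 9140.1 in B6, with 3 of 4 higher and 1 lower. Of the 5 monocyte and macrophage markers 4 fell and 1 rose. The part of these lists was not tested.

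The Ts1Cje + Trib1 line differed most from its hematopoietic counterpart. Of 74 genes 36 rose and 2 fell, where 34.1% of all genes rose and 26.8% fell. The median log2 difference was 0.086 for the family and 0.022 for all genes, and 69 of 74 genes lay within 0.2 of 0, against 6440 of all genes. All 38 large subunit genes had a positive difference and 24 of them rose, compared with 8 of 24 small subunit genes and none of the 3 stalk genes. Whether the subunits differed was not tested.

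Rpl14 rose most, again on its weak set. It read 334, 316 and 351 in Ts1Cje + Trib1 and 201, 161 and 173 in Ts1Cje, with a wide gap between the groups and a log2 difference of 0.85 (SE 0.066, adjusted p = 6.53e-08). Rpl13 read 6032, 6079.5 and 5824 in Ts1Cje + Trib1 and 5149, 5058 and 5333 in Ts1Cje on its strong probe set, a log2 difference of 0.21 (SE 0.036, adjusted p = 0.00021), but a weaker probe set of the same gene fell, as described further on. Rpl36a, at the site where transfer RNA leaves the ribosome, read 5441, 5308 and 5366 in Ts1Cje + Trib1 and 4830.5, 4818 and 4616 in Ts1Cje, a log2 difference of 0.18 (SE 0.034, adjusted p = 0.000531). Rpl13a, known in human myeloid cells for silencing inflammatory mRNAs when released from the ribosome, read 5976, 6043 and 5937 in Ts1Cje + Trib1 and 5298, 5303 and 5382 in Ts1Cje, a log2 difference of 0.17 (SE 0.032, adjusted p = 0.000409). For all 4 genes every line array lay above every Ts1Cje array, which the naming of genes by size required.

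Among genes with a known role in blood, Rps14 read 6251, 6121 and 5976 in Ts1Cje + Trib1 and 5454, 5457 and 5444 in Ts1Cje, a log2 difference of 0.17 (SE 0.032, adjusted p = 0.000499). Rpl11, which binds Mdm2 and so stabilises p53 when ribosome assembly fails, read 5479.9, 5417 and 5335 in Ts1Cje + Trib1 and 4951, 4808 and 4761 in Ts1Cje, a log2 difference of 0.16 (SE 0.033, adjusted p = 0.000858). In both cases the groups were apart. Rpl28 and Rps19 rose by 0.17 and 0.10 on the log2 scale, although the rise of Rps19 lost its call without Ts1Cje replicate 3 (adjusted p = 0.052) and without Ts1Cje + Trib1 replicate 2 (adjusted p = 0.067). Rpl22, needed in mice for development of T cells, had a log2 difference of 0.041 (adjusted p = 0.352) on its strong probe set, which read 3123, 3117 and 2987 in Ts1Cje + Trib1 and 2959, 2997 and 3009 in Ts1Cje. The weak set of Rpl22 rose by 0.96 (SE 0.068, adjusted p = 3.27e-08). Neutrophil granule markers summed to 6073 to 6238 in Ts1Cje + Trib1, against 22889 to 23523 in Ts1Cje, and mast cell and basophil markers to 19871 to 20582 in Ts1Cje + Trib1, against 3845 to 4120.2 in Ts1Cje. Proliferation markers summed to 8961 to 9109 in Ts1Cje + Trib1, against 8247 to 8519 in Ts1Cje, with 2 of 4 higher and 1 lower. None of the 10 lists overlapped, and their part in the ribosomal shift was not tested.

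Of 18 listed genes of Diamond-Blackfan anaemia and the deletion syndrome 14 were tested: 7 fell and none rose in Ts1Cje against B6 (29.3% of all genes fell), none passed between the Trib1-labelled lines (11.9% of all genes rose and 9.63% fell), 3 rose in B6 + Trib1 against B6 (34.1% of all genes rose), and 8 rose in Ts1Cje + Trib1 against Ts1Cje (34.1% of all genes rose). Fau, a ribosomal protein fused to a ubiquitin-like domain whose symbol the rule does not take, passed in none of the 4 comparisons, with log2 differences from -0.0059 to 0.057.

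The genotype difference itself differed between lines and hematopoietic cells for 8 of the 74 genes, all in the positive direction, where 28.4% of all genes passed in that direction and 20.2% in the other. These were Rpl14, Rpl7l1, Rpl30, Rpl36a, Rpl13a, Rps27l, Rpl24 and Rpl34-ps1, and the median over the 74 genes was 0.072. Among the sets that represent genes, that of Rpl14, a weak set, had the largest value, 0.45 (SE 0.093, adjusted p = 0.00159). The count depended on scaling: with trimmed-mean scaling 1 gene was higher and 1 lower, and with a variance trend 34 were higher and 1 lower. Of all genes 24.4% were higher and 23.7% lower with trimmed-mean scaling, and 29% and 20.4% with the trend. The count was 5 without B6 replicate 2, Ts1Cje replicate 3, B6 + Trib1 replicate 1 or Ts1Cje + Trib1 replicate 1, where 25.3% to 26.1% of all genes were higher. It was 13 without Ts1Cje replicate 1, where 30.7% were.

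**Figure D2:**
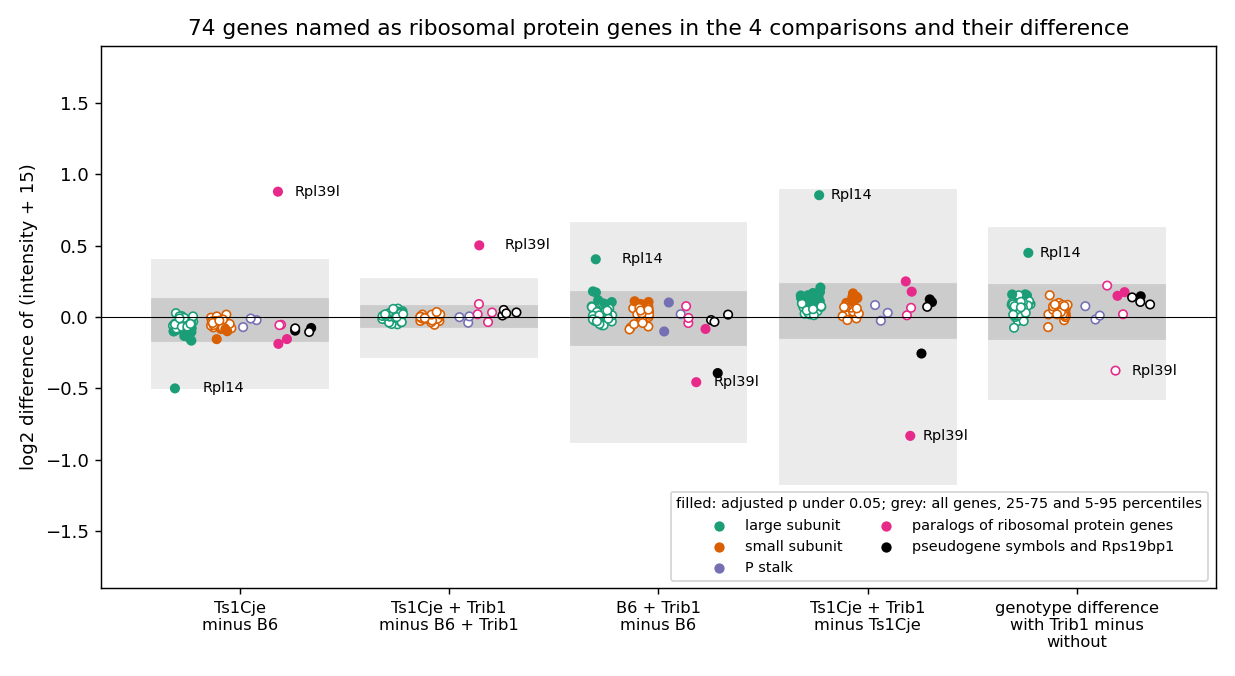
Each point is 1 of the 74 genes, placed by its log2 difference of (intensity + 15) in the 4 comparisons and in the difference between genotype effects, coloured by role and filled where the adjusted p was under 0.05; the grey bands hold all 12560 genes from the 25th to the 75th percentile (dark) and from the 5th to the 95th (light). Most points crowd near 0 inside the dark band, while Rpl39l and Rpl14 stand apart, as does Rps19bp1 in B6 + Trib1 minus B6, all of them on weak probe sets.

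Of the 5 paralogs tested, 4 passed in at least 1 comparison. Rpl39l, a copy of Rpl39 on chromosome 16 known in mice from ribosomes of male germ cells, was the only one of the 74 genes to rise with the Ts1Cje genotype. Its probe set was weak, with a mean of 100, so its size among the 74 genes compares a weak set with mostly strong ones. Rpl39l read 181, 128 and 203 in Ts1Cje and 82, 85.3 and 86.5 in B6, a log2 difference of 0.88 (SE 0.11, adjusted p = 2.13e-05). It read 89.4, 83.7 and 90.2 in Ts1Cje + Trib1 and 56.2, 56.2 and 60.2 in B6 + Trib1, a log2 difference of 0.50 (SE 0.11, adjusted p = 0.00462). In both pairs all Ts1Cje-background arrays lay above all B6-background arrays, although Ts1Cje replicate 2 was well below the other 2 of its group.

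Rpl39l was also lower in the lines. The log2 difference was -0.46 (SE 0.11, adjusted p = 0.00256) for B6 + Trib1 minus B6 and -0.83 (SE 0.11, adjusted p = 1.37e-05) for Ts1Cje + Trib1 minus Ts1Cje, again without overlap. The genotype difference with the Trib1 label minus that without it was -0.38 (adjusted p = 0.0581), which did not pass, but did without Ts1Cje replicate 2 (adjusted p = 6.6e-05) and with quantile normalization (adjusted p = 0.019). The 4 pairwise calls held in every alternative tried. Rpl39l lies outside the stretch from Sod1 to Zbtb21, in which no ribosomal protein gene of the rule lies. Rpl39 itself, on chromosome X, read 6359.8, 6227 and 5884 in Ts1Cje + Trib1, 6298, 6152 and 6494 in B6 + Trib1, 6325, 5958 and 5872 in Ts1Cje and 6201, 6273 and 6348 in B6, and passed in no comparison.

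Of the other chromosome 16 genes, Rpl24, a large subunit protein mutated in the Belly spot and tail mouse, read 4652, 4699 and 4480.1 in Ts1Cje and 4873, 5034 and 4971 in B6, a log2 difference of -0.11 (SE 0.035, adjusted p = 0.0224). That call was lost under trimmed-mean scaling (adjusted p = 0.079), without B6 replicate 2 or 3 and without Ts1Cje replicate 3, and the sign turned on a weaker probe set. Rpl35a fell in the same comparison.

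Rpl22l1, the paralog of Rpl22, read 3428, 2953 and 2953 in Ts1Cje and 3492, 3679 and 3449 in B6, with Ts1Cje replicate 1 only just below the lowest B6 array, and a log2 difference of -0.19 (SE 0.063, adjusted p = 0.0241). It read 3656, 3528 and 3355 in Ts1Cje + Trib1, overlapping Ts1Cje, with a log2 difference of 0.18 (SE 0.063, adjusted p = 0.0265). Both calls were lost without Ts1Cje replicate 2 or replicate 3, with adjusted p between 0.094 and 0.1, and the first also without B6 replicate 2, the second without Ts1Cje + Trib1 replicate 1 or 2. Rpl7l1, a copy of Rpl7 described in large subunit assembly, read 732, 689 and 682 in Ts1Cje and 781, 796 and 768 in B6, a log2 difference of -0.16 (SE 0.039, adjusted p = 0.00493). In Ts1Cje + Trib1 it read 828, 844 and 834, above all Ts1Cje arrays, a log2 difference of 0.25 (SE 0.039, adjusted p = 7.72e-05).

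Rps27l, a paralog of Rps27 and a known target of p53, read 3094, 3133 and 3177 in B6 + Trib1 and 3399, 3285 and 3288 in B6, a log2 difference of -0.084 (SE 0.033, adjusted p = 0.0404) that was lost with quantile normalization (adjusted p = 0.21) and without any of the 3 B6 arrays. In Ts1Cje + Trib1 it read 3296, 3354 and 3367, above all 3 B6 + Trib1 arrays, yet the log2 difference of 0.091 (adjusted p = 0.0732) did not pass. Rpl36al, the paralog of Rpl36a, passed in no comparison and read 4229.9, 4137 and 4248 in Ts1Cje and 4318, 4408 and 4378 in B6. Of the 3 pseudogene symbols, Rpl34-ps1 and Rpl31-ps12 fell in Ts1Cje against B6 and rose in Ts1Cje + Trib1 against Ts1Cje, and Rps15a-ps6 passed in neither. Processed copies share nearly all their sequence with the parent genes Rpl34, Rpl31 and Rps15a, and the arrays may not separate them.

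Rps19bp1, which binds Rps19 and the deacetylase Sirt1, was lower in both lines on a weak probe set with a mean of 257. It read 216, 227 and 228 in B6 + Trib1 and 292, 311 and 293 in B6, a log2 difference of -0.39 (SE 0.044, adjusted p = 4.26e-06). It read 233, 222 and 233 in Ts1Cje + Trib1 and 287, 261 and 282 in Ts1Cje, a log2 difference of -0.26 (SE 0.044, adjusted p = 0.000179). No line array reached any array of the hematopoietic cells it was set against.

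**Figure D3:**
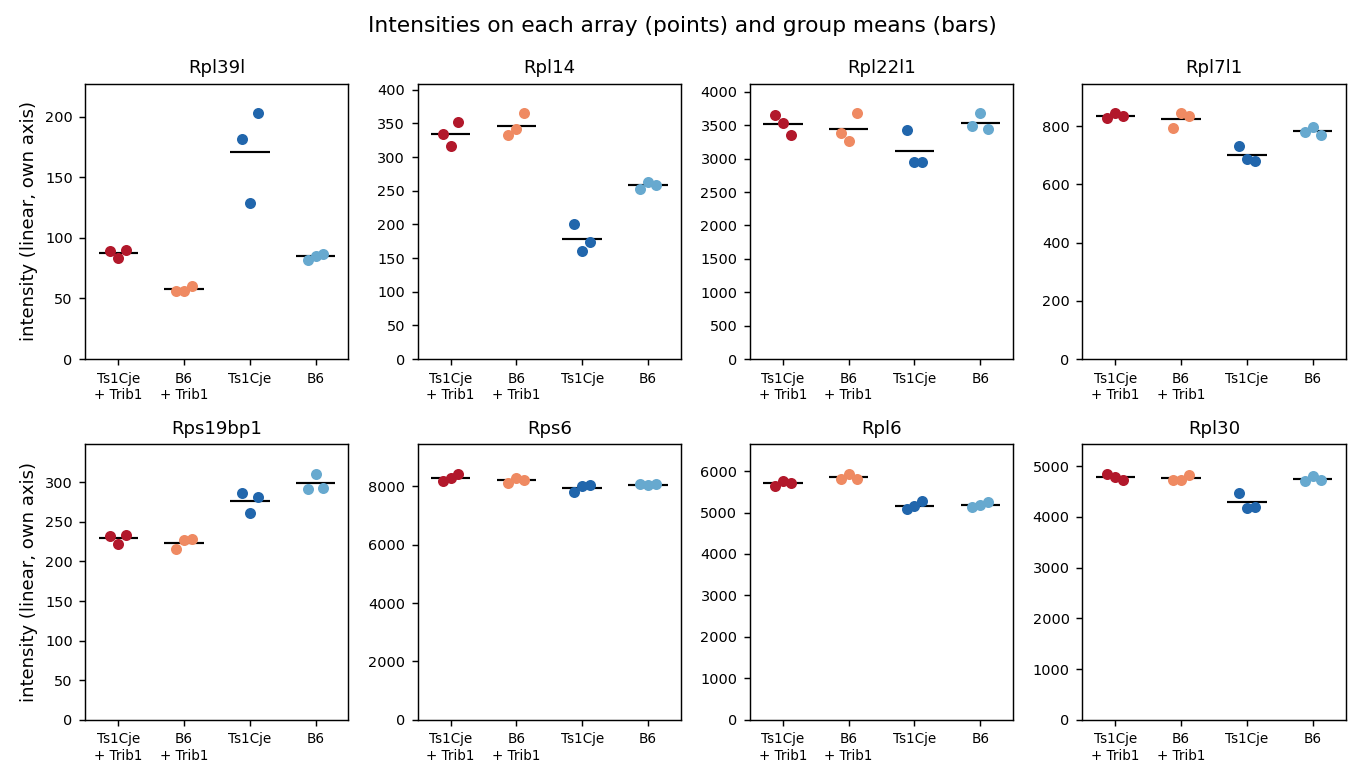
Linear intensities of 8 genes on their representative probe sets, with 1 point per array and a bar at the mean of 3 arrays, for Ts1Cje + Trib1, B6 + Trib1, Ts1Cje and B6 from left to right; each panel has its own axis starting at 0. Rpl39l is highest on the 3 Ts1Cje arrays (128 to 203), Rpl14 lowest there (161 to 201), Rps19bp1 is lower in both lines, and Rps6 is nearly level.

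Several genes had a second, weaker probe set that moved much more than the strong one. The 132 kept probe sets fell into 102 with a mean of at least 2000 and 30 below it, with a gap from 1134 to 2436. The threshold was set after the values were seen. In 20 genes a weak probe set could be set beside the strong one that represents the gene, giving 23 pairs. Whether the sets of a pair share probes is not given in the sources used here. The weak set had the larger absolute log2 difference in 18 of 23 pairs for Ts1Cje minus B6, in 21 for Ts1Cje + Trib1 minus B6 + Trib1, in 20 for B6 + Trib1 minus B6 and in 21 for Ts1Cje + Trib1 minus Ts1Cje. For Ts1Cje minus B6 the median absolute log2 difference was 0.22 on weak sets and 0.074 on strong ones, and for Ts1Cje + Trib1 minus Ts1Cje it was 0.36 on weak sets and 0.076 on strong ones. Signs were shared in 18 and 20 of the 23 pairs in these 2 comparisons.

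Rpl41, the smallest ribosomal protein, shows the contrast. Its strong probe set read 7339.5, 7329 and 7313 in Ts1Cje + Trib1 and 6625, 6952 and 7036 in Ts1Cje, a log2 difference of 0.093. Its weak probe set read 194, 211 and 245 in Ts1Cje + Trib1 and 74.3, 74.2 and 55.6 in Ts1Cje, a log2 difference of 1.48 (SE 0.09, adjusted p = 6.76e-09) in the fit to all probe sets. On the weak set every line array was far above every Ts1Cje array. A further weak set of Rpl41 gave 1.15 (SE 0.092, adjusted p = 1.2e-07). Both weak sets also rose in Ts1Cje + Trib1 against B6 + Trib1, by 0.37 and 0.45, where the strong set gave 0.0065.

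Rps24, mutated in some human Diamond-Blackfan families, read 117, 107 and 92 in Ts1Cje and 206, 199 and 229 in B6 on its weak probe set, a log2 difference of -0.92 (SE 0.1, adjusted p = 1.29e-05). The same set read 119, 122 and 105 in Ts1Cje + Trib1 and 96.3, 86.8 and 123 in B6 + Trib1, so that B6 alone stood high. Its strong set gave -0.080 for Ts1Cje minus B6. Rpl22 read 174, 141 and 136 in Ts1Cje and 252, 266 and 271 in B6 on a weak set, a log2 difference of -0.76 (SE 0.068, adjusted p = 1.65e-06), against -0.051 on the strong set. Rpl15 read 483, 479 and 469 in Ts1Cje and 712, 713 and 709 in B6 on a weak set, a log2 difference of -0.56 (SE 0.039, adjusted p = 1.87e-07), against -0.089 on the strong set.

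Rps6 read 875, 840.2 and 866 in Ts1Cje + Trib1 and 619.5, 593 and 570.4 in Ts1Cje on its weak set, a log2 difference of 0.52 (SE 0.046, adjusted p = 3.23e-07), against 0.060 on the strong set. In the fit to all probe sets, Rpl13 was the only gene whose sets were called in opposite directions. Its weak set read 452, 438 and 468 in Ts1Cje + Trib1 and 793, 786 and 759 in Ts1Cje, a log2 difference of -0.76 (SE 0.054, adjusted p = 3.41e-08), where the strong set rose by 0.21. In B6 + Trib1 minus B6 the weak set also fell (-0.28) and the strong set rose (0.10).

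Fitted as probe sets, the 102 strong sets gave 0 rises and 24 falls in Ts1Cje minus B6, and the 30 weak sets gave 2 rises and 16 falls, where 21.4% of all 20066 kept probe sets rose and 27.4% fell. In Ts1Cje + Trib1 minus Ts1Cje the strong sets gave 48 rises and 0 falls and the weak sets 22 rises and 4 falls, where 33.2% rose and 25.4% fell. Between the lines the strong sets gave 1 rise and the weak sets 4, with no falls, where 10.4% rose and 7.71% fell. In B6 + Trib1 minus B6 the strong sets gave 10 rises and 6 falls and the weak sets 13 rises and 5 falls, where 32% rose and 30.4% fell. The difference between genotype effects passed in the positive direction on 13 strong and 13 weak sets, where 26.1% of all probe sets did, and in the negative direction on 1 weak set, where 17.9% did. Identifiers with s or x, which mark probes that also match other transcripts, belonged to 54 of the 132 kept sets, and ribosomal protein genes have many processed pseudogenes. Whether the weak sets read the same transcript forms as the strong ones, and whether the strength of the signal bears on the size of the differences, was not tested.

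**Figure D4:**
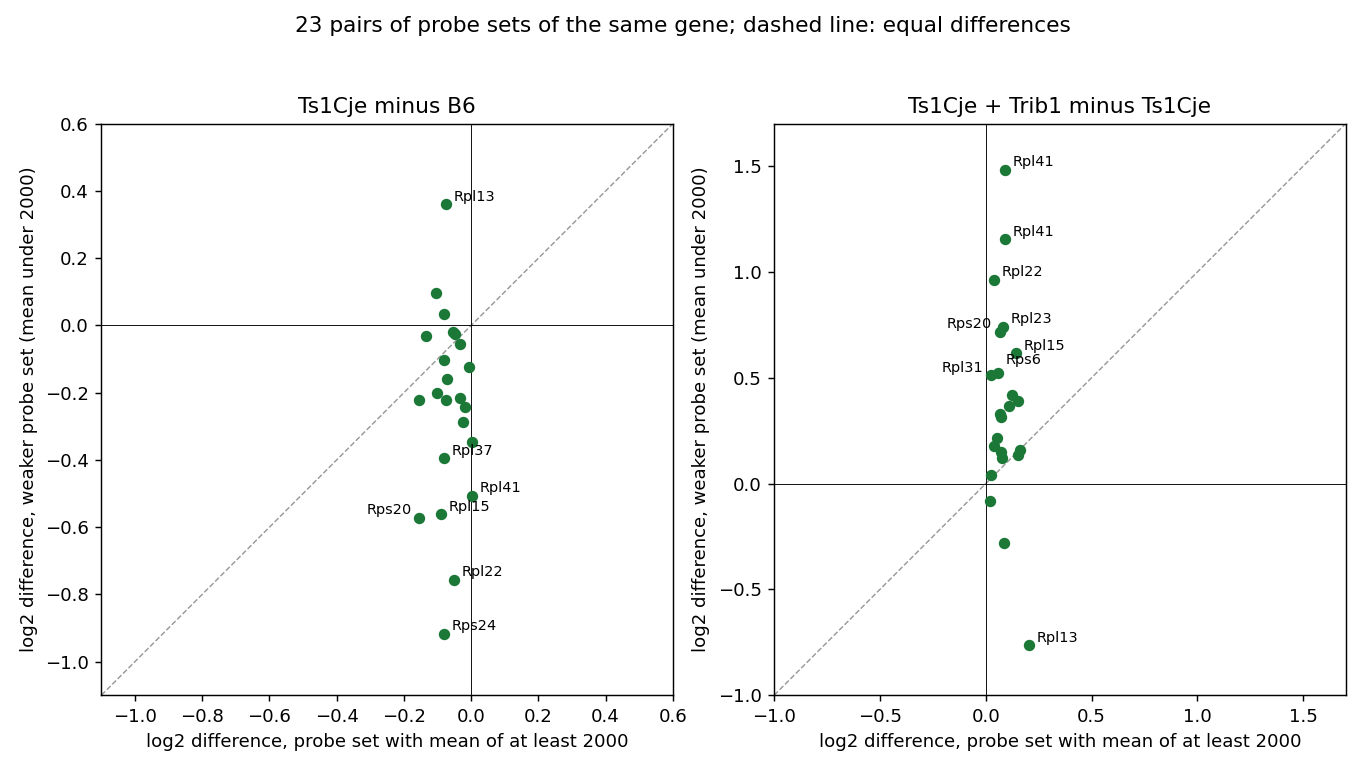
Each point is a pair of probe sets of the same gene, with the log2 difference of the strong set (mean of at least 2000) on the horizontal axis and of the weak set on the vertical axis, for Ts1Cje minus B6 (left) and Ts1Cje + Trib1 minus Ts1Cje (right). The points form a steep column near 0 on the horizontal axis, the weak sets spanning -0.92 to 0.36 on the left and -0.76 to 1.48 on the right.

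Other genes whose mRNAs carry the TOP motif shifted in the same comparisons. Of 25 listed TOP genes that are not ribosomal proteins, 21 were tested. In Ts1Cje against B6, 15 fell and none rose, where 29.3% of all genes fell, with a median log2 difference of -0.14, against -0.061 for the ribosomal protein genes and 0.0090 for all genes. Between the lines 2 rose and 1 fell, where 11.9% of all genes rose and 9.63% fell. In B6 + Trib1 against B6 there were 4 rises and 4 falls, where 34.1% of all genes rose and 31.1% fell. The comparison of Ts1Cje + Trib1 with Ts1Cje gave 14 rises and 2 falls, where 34.1% of all genes rose and 26.8% fell, with a median of 0.19.

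Gas5, a noncoding host of small nucleolar RNAs, read 647, 603 and 622 in Ts1Cje and 945, 882 and 955 in B6, a log2 difference of -0.56 (SE 0.051, adjusted p = 1.47e-06). Nap1l1, a histone chaperone, read 1953, 1881 and 1959 in Ts1Cje and 2578, 2439 and 2503 in B6, a log2 difference of -0.37 (SE 0.035, adjusted p = 2e-06). Snhg8, another host of small nucleolar RNA, gave -0.27 (SE 0.039, adjusted p = 7.17e-05), and Npm1, the nucleolar protein nucleophosmin, gave -0.24 (SE 0.034, adjusted p = 7.8e-05). In all 4 genes every Ts1Cje array lay below every B6 array. These genes were picked for the smallest adjusted p in this comparison, a choice that favours groups without overlap. In Ts1Cje + Trib1 against Ts1Cje the same genes rose, by 0.32 for Gas5, 0.35 for Nap1l1, 0.71 for Snhg8 and 0.19 for Npm1.

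Of 28 listed translation initiation factors 20 were tested, and their calls went both ways: 3 rose and 9 fell in Ts1Cje against B6, 1 rose and none fell between the lines, 3 rose and 12 fell in B6 + Trib1 against B6, and Ts1Cje + Trib1 against Ts1Cje gave 4 rises and 9 falls. Of all genes 23.3% rose and 29.3% fell in the first comparison, 11.9% and 9.63% in the second, 34.1% and 31.1% in the third, and 34.1% and 26.8% in the last. Eif2b2, a subunit of the factor that recharges eIF2, rose in Ts1Cje against B6 by 0.38 (SE 0.039, adjusted p = 4.58e-06). Eif4g3, a scaffold of the cap-binding complex, gave -0.35 (SE 0.048, adjusted p = 4.54e-05), Eif3m gave -0.24 (SE 0.046, adjusted p = 0.000806) and Eif1ax gave -0.19 (SE 0.034, adjusted p = 0.000566) in the same comparison. In Ts1Cje + Trib1 against Ts1Cje, Eif3m rose by 0.45.

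Among 13 tested of 17 listed genes of the mTORC1 and S6 kinase axis, 2 rose and 7 fell in Ts1Cje against B6, 1 rose and 1 fell between the lines, 2 rose and 5 fell in B6 + Trib1 against B6, and Ts1Cje + Trib1 against Ts1Cje gave 4 rises and 4 falls. The shares of all genes were those just given, and the counts between the lines and for Ts1Cje + Trib1 against Ts1Cje were near them. Pdcd4, an inhibitor of the helicase eIF4A that S6 kinase marks for degradation, read 408, 419.6 and 369 in Ts1Cje and 859, 830.3 and 836 in B6, a log2 difference of -1.05 (SE 0.053, adjusted p = 6.3e-09). In Ts1Cje + Trib1 it read 850.3, 794 and 879, all above the Ts1Cje arrays. Eef2k, the kinase that slows elongation, read 1879, 1873 and 1948 in Ts1Cje + Trib1 and 609, 632 and 603 in Ts1Cje, a log2 difference of 1.60 (SE 0.036, adjusted p = 1.24e-13). In Ts1Cje against B6 it gave -0.24. Larp1 gave -0.24 (SE 0.05, adjusted p = 0.00148) in Ts1Cje against B6, and Eif4ebp1, the inhibitor of the cap-binding protein eIF4E, rose there by 0.23 (SE 0.037, adjusted p = 0.000198).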

How the data were processed

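The study compared RNA of 12 mouse cell samples, 3 arrays in each of 4 groups taken from the sample labels. The deposited table held a linear intensity for each of 45141 probe sets, made by the authors with MAS5, per the submitters' processing notes. The published MAS5 method needs mismatch probes, and the probe sets here are named as perfect-match only; no scaling target is given, so the summary method is not settled. No further scaling was applied. Symbols came from the platform annotation, in which 28898 probe sets had 1 symbol, 551 several and 15588 none, besides 104 controls; those without a single symbol were left out, including 15 whose symbols include a ribosomal protein gene. Chromosomes and start sites came from RefSeq tables on GRCm38.p6. All 75 genes were found in the table of chromosomes, and 58 of the 74 tested genes in that of start sites.

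The values were taken as log2(intensity + 15), and each gene was represented by its kept probe set with the highest mean, so 33 genes with several kept sets enter once. With limma 3.58.1 in R 4.3.3, all 12 arrays and 12560 genes entered a single fit of 4 group means, with two-sided moderated tests adjusted by Benjamini and Hochberg. The threshold was an adjusted p of 0.05. The steps were tested on simulated data. Same-numbered arrays deviated from their group means with correlations from -0.45 to 0.35 over 18 pairs, so the numbers were not taken as pairs. Named genes were up to 6 largest rises and falls per comparison among ribosomal protein genes that passed. In the 4 pairwise comparisons these genes also had to show no overlap between the arrays of the 2 groups. Their lack of overlap was thus set by the choice. Also named were all tested paralogs, a few genes with known roles, and from each further list up to 4 genes with the smallest adjusted p, here in Ts1Cje minus B6. Rpl39, Rps6, Rpl15, Rpl41, Rps24 and Rpl34-ps1 fall outside this rule and were named after their values were seen. The same holds for Rpl7, Rpl21, Rpl23, Rpl26, Rpl34, Rpl35a, Rpl37, Rps7, Rps15a, Rps28, Rpl31-ps12 and Rps15a-ps6. These further genes were not followed singly through the alternatives. The members and lists were chosen with earlier results of these data known. Alternatives covered scaling, offset, filter, choice of probe set, variance moderation, a replicate block and each array left out. Some genes of the family are not reported here. The number of arrays limits the precision.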

Additional observations from a re-analysis of the deposited data

Results flagged for a closer look

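The genotype difference with the Trib1 label minus that without it passed limma's test for 8 of the 74 genes. All 8 were positive, where 28.4% of all genes passed in that direction. For Rpl14 it was 0.45, with a genotype difference of -0.052 between the lines and -0.50 between the hematopoietic cells. For Rpl7l1 it was 0.17 (lines 0.019, hematopoietic cells -0.16), for Rpl30 0.16 (lines 0.0080, hematopoietic cells -0.15) and for Rpl36a 0.16 (lines 0.057, hematopoietic cells -0.10). For Rpl13a it was 0.15, for Rps27l 0.15, for Rpl24 0.15 and for Rpl34-ps1 0.14, each with adjusted p between 0.0148 and 0.0292. Of these 8, Rpl14 alone kept its call under trimmed-mean scaling.

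The same difference passed on 14 weak probe sets (mean under 2000) in the fit to all probe sets, 13 higher and 1 lower, where 26.1% of probe sets passed in the positive direction and 17.9% in the negative. Of the 14, 2 are the sets that represent Rpl14 and Rpl7l1. Among the other 12 it was 1.08 for a set of Rps24, 0.87 and 0.80 for 2 sets of Rpl41, 0.71 and 0.23 for 2 sets of Rps20, and 0.68 for a set of Rpl22. It was 0.50 for a set of Rpl23, 0.49 for Rpl15, 0.42 for Rpl37, 0.29 for Rpl7l1 and 0.28 for Rps6. The weak set of Rpl13 gave -0.49, the only negative value among the 14. The representative strong sets of Rps24, Rpl41, Rps20, Rpl22, Rpl23, Rpl15, Rpl37, Rps6 and Rpl13 did not pass.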

How the results depend on the processing

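The family's median turned sign in 2 comparisons where it was near 0. For B6 + Trib1 minus B6 it was 0.019 as reported and -0.0026 with median centring. Between the lines it was 0.0023 as reported, -0.00955 with trimmed-mean scaling, -0.0012 over subunit and stalk genes alone and -4.66e-06 without B6 + Trib1 replicate 2. Counts moved more. With trimmed-mean scaling 7 genes fell in Ts1Cje minus B6, 24 rose and 2 fell in B6 + Trib1 minus B6, and 1 was higher and 1 lower in the difference between genotype effects, with medians of -0.033, 0.054 and 0.032. Median centring gave medians of -0.076 for Ts1Cje minus B6, 0.013 between the lines and 0.098 for the difference between genotype effects, and 5 rises in B6 + Trib1 minus B6. Quantile normalization gave medians of -0.041 for Ts1Cje minus B6, 0.0067 for B6 + Trib1 minus B6, 0.068 for Ts1Cje + Trib1 minus Ts1Cje and 0.059 for the difference between genotype effects, in which 1 gene was lower. Of all genes 23.5% were lower in that difference. A variance trend with robust moderation gave 42 falls in Ts1Cje minus B6, 3 rises between the lines, 23 rises and 10 falls in B6 + Trib1 minus B6, and 34 higher and 1 lower in the difference between genotype effects. With it 12.4% of all genes rose between the lines, and 34.1% rose and 31.4% fell in B6 + Trib1 minus B6. Fitting only the 2 groups gave 8 falls in Ts1Cje minus B6. The replicate block gave 12 falls there and 1 lower gene in the difference between genotype effects, where 19.1% of all genes were lower. It moved no other count by over 1.5 times, and the replicate numbers are not known to pair the arrays. No filter, the 60th percentile filter and leaving out cross-hybridizing probe sets each gave 2 rises between the lines, the last with a median of 0.11 for Ts1Cje + Trib1 minus Ts1Cje. In these settings 8.73%, 15.6% and 11.7% of all genes rose between the lines. The subunit and stalk genes alone, a choice made after the values were seen, gave 0 rises in Ts1Cje minus B6 and between the lines, 1 fall in B6 + Trib1 minus B6, 0 falls in Ts1Cje + Trib1 minus Ts1Cje and 5 higher in the difference between genotype effects.

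Averaging all kept probe sets per gene gave 2 rises in Ts1Cje minus B6, 3 between the lines, 8 falls in B6 + Trib1 minus B6, 4 falls and a median of 0.10 in Ts1Cje + Trib1 minus Ts1Cje, and 19 higher and 1 lower in the difference between genotype effects. The shares of all genes were 24.6%, 12.6%, 31.1%, 26.5%, 28.8% and 21.1%, in that order. Taking the weakest probe set gave 2, 4, 9 and 4 in the same order, a median of 0.12 in Ts1Cje + Trib1 minus Ts1Cje, and 16 higher and 1 lower with a median of 0.085 in the difference between genotype effects. Here the shares of all genes were 21%, 9.55%, 27.4%, 23.3%, 22.9% and 17.5%. Leaving out 1 array at a time gave 7 to 22 falls and medians of -0.070 to -0.058 in Ts1Cje minus B6, 6 to 12 rises and 2 to 5 falls in B6 + Trib1 minus B6, 28 to 37 rises and medians of 0.082 to 0.096 in Ts1Cje + Trib1 minus Ts1Cje, and 5 to 13 higher and 0 to 1 lower genes in the difference between genotype effects. Among all genes 25.3% to 30.8% fell in Ts1Cje minus B6. In B6 + Trib1 minus B6 28.7% to 35.9% rose and 28.4% to 32.1% fell. In Ts1Cje + Trib1 minus Ts1Cje 31.7% to 34.4% rose. In the difference between genotype effects 25.3% to 30.7% were higher and 16.9% to 24% lower. Signs of the named genes that were followed singly turned, with a pass on at least 1 side, only in the alternatives that use other probe sets, in 24 values. In 6 of the 24, all of Rpl13 or Rpl24, both values passed in opposite directions. For Ts1Cje minus B6, Rpl13 was 0.14 with the mean and 0.36 with the weakest set, Rpl41 was -0.22 and -0.51 (also -0.51 without cross-hybridizing sets), and with the weakest set Rpl24 was 0.097 and Eef2k 0.026. For B6 + Trib1 minus B6, Rpl13 was -0.087 and -0.28, Rpl22 0.13 and 0.29, and Rps24 -0.27 and -0.96 (also -0.96 without cross-hybridizing sets). For Ts1Cje + Trib1 minus Ts1Cje, Rpl13 was -0.28 and -0.76, Rpl24 -0.096 and -0.28, Eif1ax 0.44 and 0.88, and Eif4ebp1 0.087 with the weakest set. In the difference between genotype effects Rpl13 was -0.19 and -0.49, and Rpl24 -0.12 with the weakest set. The cause of these changes was not tested.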

Other observations

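Over all 132 kept ribosomal probe sets, Ts1Cje replicates 1, 2 and 3 were the array of their group nearest to the B6 mean in 79, 22 and 31 sets, and B6 replicates 1, 2 and 3 were nearest to the Ts1Cje mean in 70, 30 and 32 sets. Replicate 1 was thus most often the nearest in both groups. The mean of log2(intensity + 15) over these sets was 11.21, 11.17 and 11.17 on the Ts1Cje arrays, against 11.27, 11.29 and 11.29 on the B6 arrays, so that all 3 Ts1Cje arrays lay below all 3 B6 arrays. Between the lines the counts were 35, 50 and 47 for Ts1Cje + Trib1 replicates 1, 2 and 3 and 35, 35 and 62 for B6 + Trib1. Probe sets of a gene share its RNA and all sets share the arrays, so these counts are a description, looked at after the values were seen, and no test was made.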
